A study of Homo sapiens with 4 samples.

Results

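The regions described here were wide stretches of H3K27 acetylation away from the outer 5′ ends of protein-coding genes. They carried a peak in MOLM13 cells treated with OTX015 and none in cells treated with SNDX-50469 plus OTX015. They were chosen by the peak calls themselves. A peak of the OTX015 list was taken when it was at least 1000 bp wide, lay more than 2.5 kb from every protein-coding 5′ end, and shared no base with a peak of the combination list. On the 16 chromosomes to which the rule applied (1 to 4, 7, 9 to 12, 14 to 18, 21 and 22), 214 of 15440 OTX015 peaks met it. Of the 214, 190 also lay more than 2.5 kb from every RefSeq start, internal and noncoding ones included. The presence of each region in one list and its absence from the other are therefore the selection and not a result. The 2 lists held 142059 peaks in all.

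MOLM13 is a human acute myeloid leukemia (AML) cell line that carries an MLL-AF9 fusion. Cells of this line were exposed for 16 hours to 500 nM SNDX-50469, a Menin inhibitor, together with 500 nM OTX015, which blocks the bromodomains of BET proteins, or to 500 nM OTX015 alone, so that both groups received the BET inhibitor. Each treatment had 1 H3K27ac ChIP library and 1 input library; no processed values of the inputs were used here, and untreated cells and cells given SNDX-50469 alone were not analysed here. Since neither treatment had a second library, differences could not be checked against replicates and none was tested between treatments. The interval given with a share or median covers counting over regions or genes only.

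H3K27ac marks active promoters and enhancers, and wide distal stretches of it are typical of enhancer clusters near genes that define a cell's identity. In MLL-rearranged AML the fusion protein, held on chromatin with the help of Menin, keeps HOXA9, MEIS1 and other genes of the stem cell programme active. BET proteins read acetylated histones and pass the signal to the transcription machinery.

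The promoters of 4 of 5 myeloid leukemia marker genes on these chromosomes carried a peak in the combination list and 4 of 5 in the OTX015 list. Promoter peaks were found at 0 of 4 B cell genes and 0 of 4 erythroid and megakaryocyte genes in both lists. T and NK cell genes had 2 of 6 in the combination list and 0 of 6 in the OTX015 list, and genes of tissues outside blood had 1 of 6 and 0 of 6. The lists give no read numbers. Solved from the lowest peak values, the background was 1.47 fragments per base in the combination library and 0.764 in the OTX015 library, a ratio of 1.92. A peak was therefore called from 4.76 times background with the combination and from 6.54 times background with OTX015. In fragments the limit was the higher one with the combination, at 7 against 5. Of the 17246 combination peaks on these chromosomes, 289 reached the OTX015 limit of 6.54 times background. Which list was the more sensitive was not tested.

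Sequence was read for the few regions in which the RefSeq table (GRCh38.p14) places a transcript start or a microRNA. A start lay in 9 of the 214 regions and a microRNA hairpin in 1. The remaining regions are given by their coordinates on GRCh38. The start windows run from 250 bases before to 50 bases after the start, and CpG dinucleotides, the letters CG, are in capitals because their number separates the CpG-rich starts from the rest. The first window is the internal JMJD1C start inside the region of highest enrichment, and the second is the outer JMJD1C start, which also lay under an OTX015 peak and under no combination peak.
JMJD1C internal start, chr10:63465928-63466227, minus strand: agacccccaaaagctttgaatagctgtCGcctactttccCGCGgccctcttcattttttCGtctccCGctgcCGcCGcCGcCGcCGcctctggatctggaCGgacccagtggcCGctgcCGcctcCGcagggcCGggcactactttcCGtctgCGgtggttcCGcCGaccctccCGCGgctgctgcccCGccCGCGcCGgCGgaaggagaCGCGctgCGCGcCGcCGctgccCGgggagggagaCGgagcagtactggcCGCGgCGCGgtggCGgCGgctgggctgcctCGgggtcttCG
JMJD1C outer start, chr10:63521841-63522140, minus strand: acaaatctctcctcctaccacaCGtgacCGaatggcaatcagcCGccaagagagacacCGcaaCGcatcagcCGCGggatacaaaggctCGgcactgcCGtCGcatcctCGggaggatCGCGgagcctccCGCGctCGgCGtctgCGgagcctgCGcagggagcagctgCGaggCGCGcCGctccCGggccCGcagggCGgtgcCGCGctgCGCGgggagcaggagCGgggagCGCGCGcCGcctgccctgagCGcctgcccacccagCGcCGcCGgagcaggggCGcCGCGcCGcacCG
The next pair shows a CpG-rich and a CpG-poor start of protein-coding genes that lay inside other regions of the set.
BCL2L13 internal start, chr22:17638507-17638806, plus strand: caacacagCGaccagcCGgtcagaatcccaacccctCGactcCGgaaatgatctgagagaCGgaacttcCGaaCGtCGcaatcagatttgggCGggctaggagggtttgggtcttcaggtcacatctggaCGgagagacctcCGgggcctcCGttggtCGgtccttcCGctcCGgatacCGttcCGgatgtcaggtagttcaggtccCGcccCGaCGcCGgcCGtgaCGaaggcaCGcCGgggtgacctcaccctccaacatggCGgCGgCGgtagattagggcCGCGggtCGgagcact
PITPNM2 internal start, chr12:123105467-123105766, minus strand: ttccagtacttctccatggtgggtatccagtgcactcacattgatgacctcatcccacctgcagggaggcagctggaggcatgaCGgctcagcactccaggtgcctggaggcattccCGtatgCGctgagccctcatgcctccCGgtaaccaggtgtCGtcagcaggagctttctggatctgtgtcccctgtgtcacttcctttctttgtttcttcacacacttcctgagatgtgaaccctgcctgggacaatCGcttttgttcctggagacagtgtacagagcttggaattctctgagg
The pair of mature microRNAs comes from the hairpin in the region between HOXA9 and HOXA10, and their seeds, bases 2 to 8, are in capitals.
hsa-miR-196b-5p: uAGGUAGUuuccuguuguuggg
hsa-miR-196b-3p: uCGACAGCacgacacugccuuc

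The internal JMJD1C window held 42 CpG at 73% GC, a number reached by 5.85% of the 35116 start windows of the table. The outer JMJD1C window held 44 CpG. BCL2L13, a BCL2 family member of mitochondria, had 31 CpG in the window shown, and PITPNM2, a phosphatidylinositol transfer protein, had 6. The median over all windows was 14 CpG and 58.7% GC. JMJD1C and BCL2L13 thus stood above that median and PITPNM2 below it. The other starts inside regions belonged to lncRNA genes, apart from a second BCL2L13 start with 14 CpG.

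Among the 1015 distal wide regions of the OTX015 list, the 214 without a combination peak made up 21.1% (Wilson 95% interval 18.7 to 23.7%), and the other 801 shared at least 1 base with a combination peak. In the opposite direction, 125 of 845 distal wide regions of the combination list had no OTX015 peak, or 14.8% (12.6 to 17.3%). Single peaks overlapped far less often than wide regions. Of all OTX015 peaks on these chromosomes 79.9% had no combination peak, and of all combination peaks 81.6% had no OTX015 peak. The share for wide regions thus lay below the background of its list in both directions. It is a description only, since overlap chose the regions and the background was not matched for width.

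The regions were the narrower and weaker end of the distal wide class. The rule itself favours narrow regions, which have fewer bases that can overlap a combination peak. Their width ran from 1002 to 6198 bp with a median of 1292 bp (1237 to 1366), against a median of 1814 bp (1725 to 1880) in the shared regions, and they summed to 319 kb. Fold enrichment over background, as the peak caller wrote it, ran from 3.4 to 6.16 with a median of 3.74 (3.7 to 3.78), and was 4.04 (4.01 to 4.09) in the shared regions. Set against the solved background, the median was 7.31 times in the regions and 8.02 times in the shared ones. A −log10 q of at least 2 was reached by 33 of 214 regions (15.4%) and by 362 of 801 shared regions (45.2%).

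**Figure D1:**
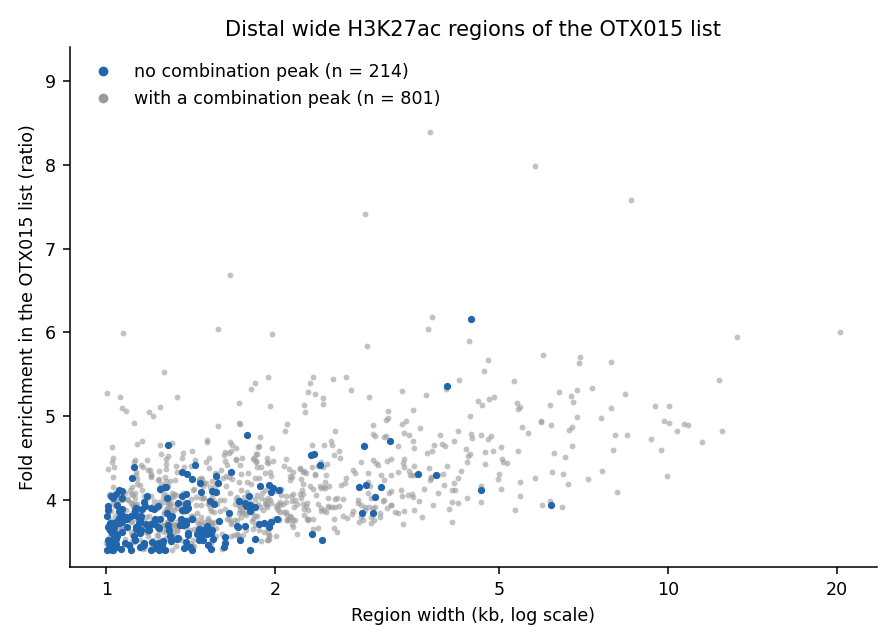
Width (kb, log scale) against fold enrichment in the OTX015 list for the 214 distal wide regions without a combination peak (blue) and the 801 with one (grey), each point 1 region. Most blue points lie at the lower left, and those of JMJD1C at 6.16 and MEIS1 at 5.36 stand above the rest.

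The share without a combination peak fell with both measures. Since 1 shared base removes a region, a wider region is less likely to pass by its length alone. The fall with width is therefore partly set by the rule. It was 40% among regions of 1000 to 1200 bp (82 of 205), 29.1% at 1200 to 1500 bp, 19.6% at 1500 to 2000 bp, 7.19% at 2000 to 3000 bp and 4.74% at 3000 bp and over (9 of 190). Across −log10 q it was 42.4% below 1.5, 19.8% at 1.5 to 2, 10.7% at 2 to 3 and 2.63% at 3 and over. Only 3 of 114 regions of that last class had no combination peak, and these lay in JMJD1C, MEIS1 and PBX3. All 3 genes are in the list of MLL fusion targets that the study names. The study names several of these genes when it describes H3K27ac of MOLM13 cells, so the list is not taken here as independent of these peaks.

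**Figure D2:**
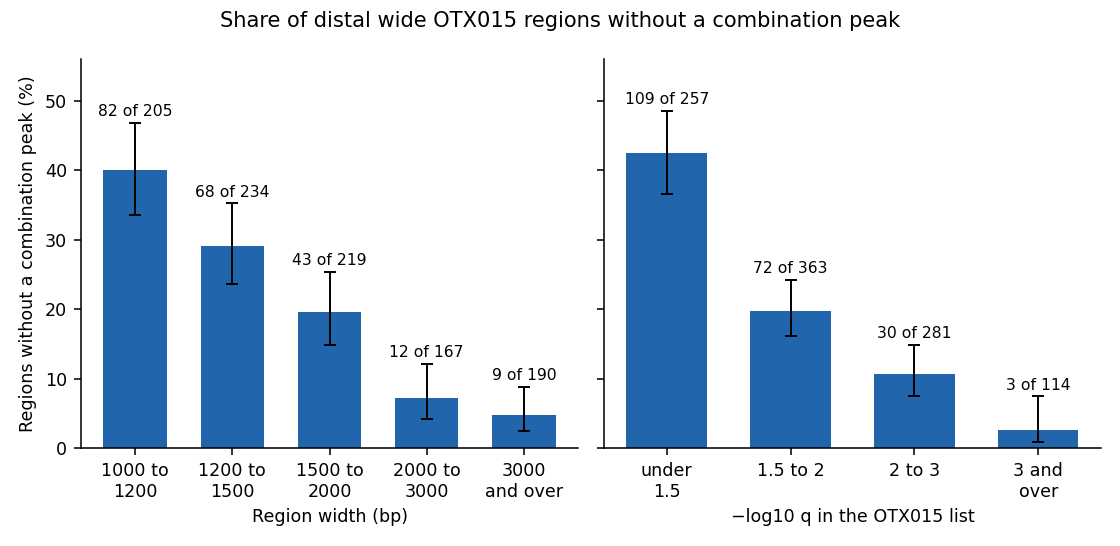
Percent of distal wide OTX015 regions without a combination peak by region width (left) and by −log10 q (right), with bars for the share, lines for Wilson 95% intervals and the counts above. The share is 40% in the narrowest class and 4.74% in the widest, and 42.4% in the lowest and 2.63% in the highest class of −log10 q. A wider region has more bases that can touch a combination peak, so the fall with width is partly set by the rule.

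At the limits of the rule the values were continuous. The narrowest regions included were 1002 bp wide (nearest gene SYT13) and 1003 bp wide (ZNF750), and the widest ones left out were 999 bp (JMJD1C) and 998 bp (ATP2B4, RELT and TEX44). The region closest to a 5′ end was 2630 bp from that of CARHSP1, and the closest one left out was 2477 bp from that of ZEB2. A region of 3785 bp lying 2201 bp from the MEIS1 5′ end, with a fold enrichment of 4.07, also fell outside by distance alone.

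Absence of a combination peak over the region did not mean an empty neighbourhood. The nearest combination peak was 0.033 kb to 1478 kb away, with a median of 2.97 kb (2.27 to 4.29), and it was within 1 kb of 55 regions (25.7%), within 5 kb of 129 (60.3%) and within 50 kb of 186 (86.9%). The other 28 regions (13.1%) had no combination peak in the 50 kb on either side. From the 125 combination-only regions to OTX015 peaks, the shares within 1, 5 and 50 kb were 36%, 67.2% and 93.6%. Closeness to peaks of the other list was thus not particular to the OTX015-only regions. The shared class was a matter of degree too: combination peaks lay over a median of 64.9% of a shared region, and over less than 10% of it in 33 of 801.

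In the 50 kb on either side, the region itself left out, peaks covered a median of 1.79 kb in the combination list and 3.37 kb in the OTX015 list. The median difference, combination minus OTX015, was −1.09 kb (−1.56 to −0.623) around these regions, against 0.231 kb (0.095 to 0.461) around the shared regions and 0.987 kb (0.554 to 1.28) around the combination-only regions. Cover was lower with the combination around 154 of 214 regions (72%, 65.6 to 77.6%), around 44.8% of shared regions and around 20.8% of combination-only regions. The same 50 kb windows around 5′ ends of all protein-coding genes with cover were covered less with the combination at 46.1%, with a median difference of 0.079 kb. Flanks of neighbouring regions overlap, and a flank can hold another region of the set. With all 214 regions and all 125 combination-only regions taken out of the flanks, the median difference was −0.672 kb (−1.22 to −0.432), and 149 of 214 flanks (69.6%) had less cover with the combination. Around combination-only regions the same measure was 0.809 kb (0.501 to 1.09), and 22.4% of flanks had less cover with the combination. Around shared regions it was 0.264 kb and 42.6%. The sign of the difference thus followed the list that each one-sided set was chosen from. These flanks adjoin places chosen by the same contrast and still hold shared regions, so they are no independent support.

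**Figure D3:**
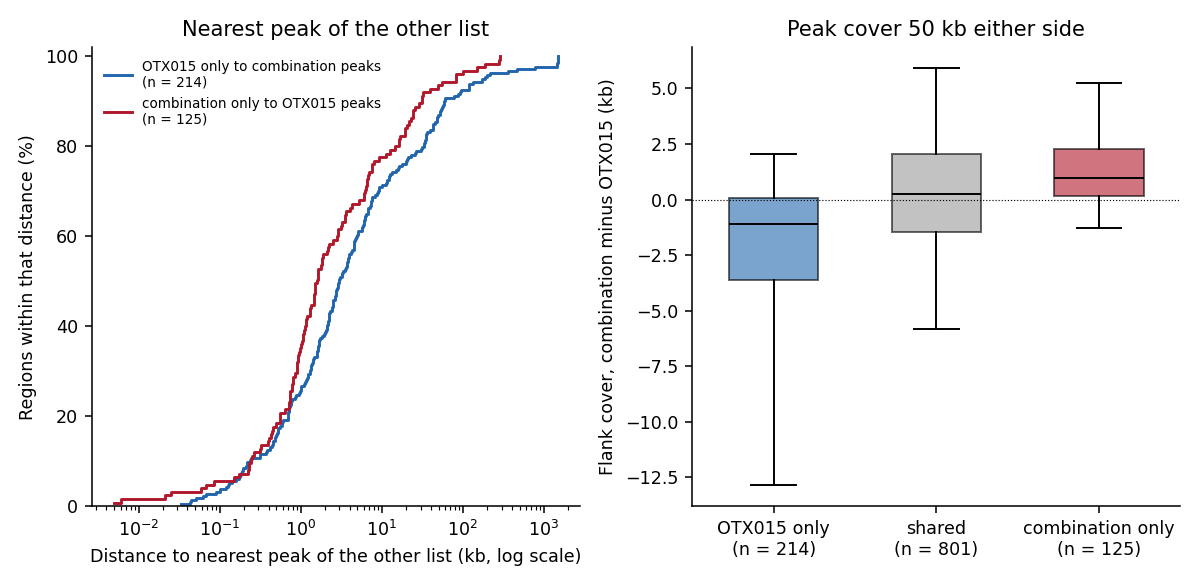
Left, percent of regions (y axis) with a peak of the other list within the distance on the x axis (kb, log scale), for the 214 OTX015-only and the 125 combination-only regions. Right, combination minus OTX015 peak cover in the 50 kb on either side (kb), with boxes for quartiles, a line for the median and whiskers from percentile 5 to 95. Medians are −1.09, 0.231 and 0.987 kb from left to right.

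Most of the regions were intragenic, as were most shared and most combination-only regions. The midpoint lay in the body of a protein-coding gene in 141 of 214 (65.9%, 59.3 to 71.9%), against 60.7% (57.2 to 64%) of the shared and 59.2% (50.4 to 67.4%) of the combination-only regions, so the intervals overlapped. The distance to the nearest 5′ end was 2.63 to 1392 kb, with a median of 30 kb (23.6 to 43). The median was 30.9 kb both for shared and for combination-only regions. The distance was within 10 kb for 47 regions (22%), against 20.3% of shared and 11.2% of combination-only regions. It was within 100 kb for 160 (74.8%), against 80.6% and 80%. Exons and introns could not be told apart with the GRCh38 gene table, which gives gene ends only.

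The regions had 171 different nearest genes, of which 142 were nearest to a single region. Within 1 kb of the 5′ end, 34 of these genes (19.9%, 14.6 to 26.5%) had a peak in the combination list and 44 (25.7%, 19.8 to 32.8%) in the OTX015 list. These promoter windows lay outside every region. Their genes were still chosen by closeness to regions of the same contrast, so the windows are not independent of the rule. Over all 13960 protein-coding genes the shares were 9.82% in the combination list and 11.9% in the OTX015 list, and over the 498 genes nearest to shared regions they were 27.1% and 31.3%. A promoter peak in the OTX015 list alone was found at 17 of the 171 genes (9.94%, 6.3 to 15.3%), where the background was 5.75%, and one in the combination list alone at 7 (4.09%, 2 to 8.21%), where it was 3.62%. The background share of the combination-only class lay inside the interval of the nearest genes, and that of the OTX015-only class just below it. Among genes nearest to shared and to combination-only regions, a promoter peak in the OTX015 list alone was at 11% and 10.7%. The OTX015-only share was thus not particular to the 171 genes. A promoter peak in the combination list alone was at 6.83% and 13.4% of those genes. Neither list had a promoter peak at 120 of the genes (70.2%, 62.9 to 76.5%), against 61.8% of the genes nearest to shared regions and 84.4% of all genes.

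A wider view of the same starts gave a larger difference. Within 10 kb of the 5′ end, with the regions themselves taken out, peaks summed to 136 kb in the combination list and 211 kb in the OTX015 list over the 171 genes. Of the 117 genes with such cover, 74 (63.2%, 54.2 to 71.4%) had less of it with the combination. The share was 53.4% (48.3 to 58.5%) for genes nearest to shared regions and 28.4% (19.4 to 39.5%) for genes nearest to combination-only regions. For all genes with cover it was 46.4% (45.1 to 47.7%), a value for which no region was taken out. The interval of the 171 genes overlapped that of the shared class and lay above that of all genes. Here too the direction followed the list that each one-sided set was chosen from. These windows lie near regions chosen by the same contrast, so they are no independent support. With the regions left in, the sums were 136 and 282 kb.

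**Figure D4:**
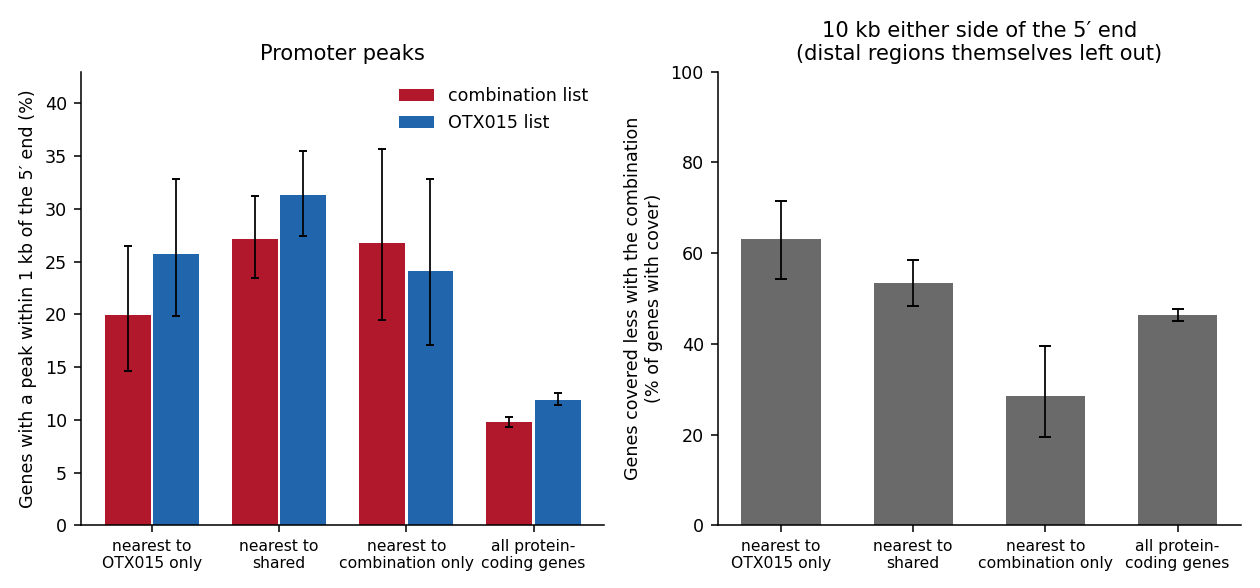
Left, percent of genes whose 5′ end had a peak at up to 1 kb in the combination list (red) and in the OTX015 list (blue). Right, percent of genes with cover within 10 kb of the 5′ end that were covered less with the combination, the distal regions themselves taken out except for all genes. Lines are Wilson 95% intervals; the OTX015-only class is at 63.2% and all genes at 46.4%.

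A protein-coding locus, the gene body with 10 kb on either side, held a region at 172 of 13960 genes, or 1.23%. Of the 7 genes on these chromosomes in the list of MLL fusion targets drawn from the study, 6 held one. They were HOXA9, MEIS1, PBX3, CDK6, JMJD1C and BMI1, and the regions summed to 18.7 kb in their loci. The study's text names BMI, taken here as BMI1, only among mRNAs that fell with SNDX-50469. With gene bodies alone the number was 4, since HOXA9 and BMI1 held none in their bodies. A longer locus has more room for a region, and the 1.23% takes no account of length. Of 16 further MLL fusion targets known from the field, 2 held one, HOXA10 and MBNL1, and HOXA10 shared its region with HOXA9.

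MEIS1 encodes the homeodomain cofactor of HOXA9. Its region, chr2:66443467-66447513 in the gene body 8.34 kb from the 5′ end, was 4047 bp wide with a fold enrichment of 5.36 and a −log10 q of 4.05. The nearest combination peak was 135 kb away. From 10 kb before to 150 kb after the 5′ end, the combination list had 0 peaks and the OTX015 list 5. The MEIS1 region was thus the second highest by fold and lay in a locus where OTX015 peaks stood alone.

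JMJD1C, a member of the JmjC histone demethylase family, held 3 regions in its body. The largest, chr10:63464655-63469106, was 4452 bp wide and had the highest enrichment of the set, with a fold enrichment of 6.16, a −log10 q of 5.52 and a level of 12.9 times background. It spanned the internal CpG-rich start shown above. The other 2, of 1654 and 1142 bp with fold enrichments of 3.85 and 3.73, lay toward the outer start. By distance their nearest 5′ end was that of REEP3, an endoplasmic reticulum shaping protein, which is read away from JMJD1C. Over the 51.5 kb from the first to the last of these regions there were 0 combination peaks and 8 OTX015 peaks. The REEP3 promoter had a peak in the OTX015 list only.

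PBX3, another homeodomain partner of HOXA9 and MEIS1, held 1 region of 1779 bp, chr9:125889018-125890796, in the gene body 142 kb from the 5′ end, with a fold enrichment of 4.78. The nearest combination peak lay 4.68 kb away. The HOXA9 region, chr7:27168781-27169960, was 1180 bp wide with a fold enrichment of 4.05 and began 3.24 kb upstream of the HOXA9 5′ end. It lay in the HOXA10-HOXA9 readthrough gene and spanned MIR196B, the source of the microRNAs shown above, with a combination peak 2.03 kb away.

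CDK6, a kinase that drives entry into the cell cycle, held 2 regions of 1386 and 1368 bp in its body, 54.2 and 52.3 kb from the 5′ end, with fold enrichments of 3.95 and 3.72. A combination peak lay between them, 0.176 and 0.051 kb from their edges. The CDK6 regions are therefore a case in which the lists placed peaks side by side, and not one of an empty locus. At the CDK6 promoter only the OTX015 list had a peak.

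BMI1, a subunit of the polycomb repressive complex PRC1, had 1.68 kb of regions within 10 kb of its body. One of them, chr10:22309426-22311735, reached into this window from a position 4.65 kb upstream of COMMD3, the gene before BMI1 on the same strand. It was 2310 bp wide with a fold enrichment of 4.53, and the nearest combination peak was 2.09 kb away. The other, chr10:22338552-22339593, was 1042 bp wide, with SPAG6 as the nearest gene. Its fold enrichment of 3.45 was near the lowest of the set, and a combination peak lay 0.975 kb away. Neither region lay in the BMI1 body. The BMI1 locus was covered over 10.2 kb in the combination list and 17.3 kb in the OTX015 list, so both lists marked it.

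MBNL1, a regulator of alternative splicing, was the nearest gene of 4 regions that lay 8.46 to 23.2 kb upstream of its 5′ end and summed to 5.71 kb. Their widths were 1982, 1553, 1118 and 1053 bp, with fold enrichments of 4.14, 3.96, 3.57 and 3.79. Over their 16.3 kb span combination peaks covered 0.112 kb and OTX015 peaks 5.71 kb. The MBNL1 promoter itself had a peak in both lists, with 0.458 kb of cover in the combination list and 1.09 kb in the OTX015 list.

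Among 10 genes for Menin, MLL and BET proteins and their partners, BRD3 alone held regions. BRD3 is a BET protein and hence a target of OTX015. Its 2 regions, chr9:134059474-134064114 of 4641 bp and chr9:134057374-134058610 of 1237 bp, lay 4.43 and 9.94 kb inside the gene with fold enrichments of 4.12 and 3.69. From 10 kb before to 45 kb after the 5′ end the combination list had 2 peaks covering 0.698 kb and the OTX015 list 7 covering 8.76 kb. The BRD3 promoter carried a peak in both.

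Other gene groups held few regions or none. Of 21 hematopoietic transcription factors, ETV6 held 1 of 1627 bp with a fold enrichment of 3.56 and a combination peak 0.1 kb away. The ETV6 locus was covered over 70.3 kb in the combination list and 58.7 kb in the OTX015 list, so its region was an exception within a locus covered more with the combination. CDK6 was the 1 of 8 cell cycle genes. No region lay in the loci of 14 myeloid differentiation genes, 8 granule and promyelocyte genes, 13 stem and progenitor genes, 4 BET response genes, 12 TNF and NF-kB response genes, 9 apoptosis genes or 11 housekeeping genes. The myeloid leukemia, B cell, T and NK cell, erythroid and non-blood marker genes held 0 as well. With 1.23% of all loci holding a region, a count of 0 in lists of this size is no result about their genes.

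**Figure D5:**
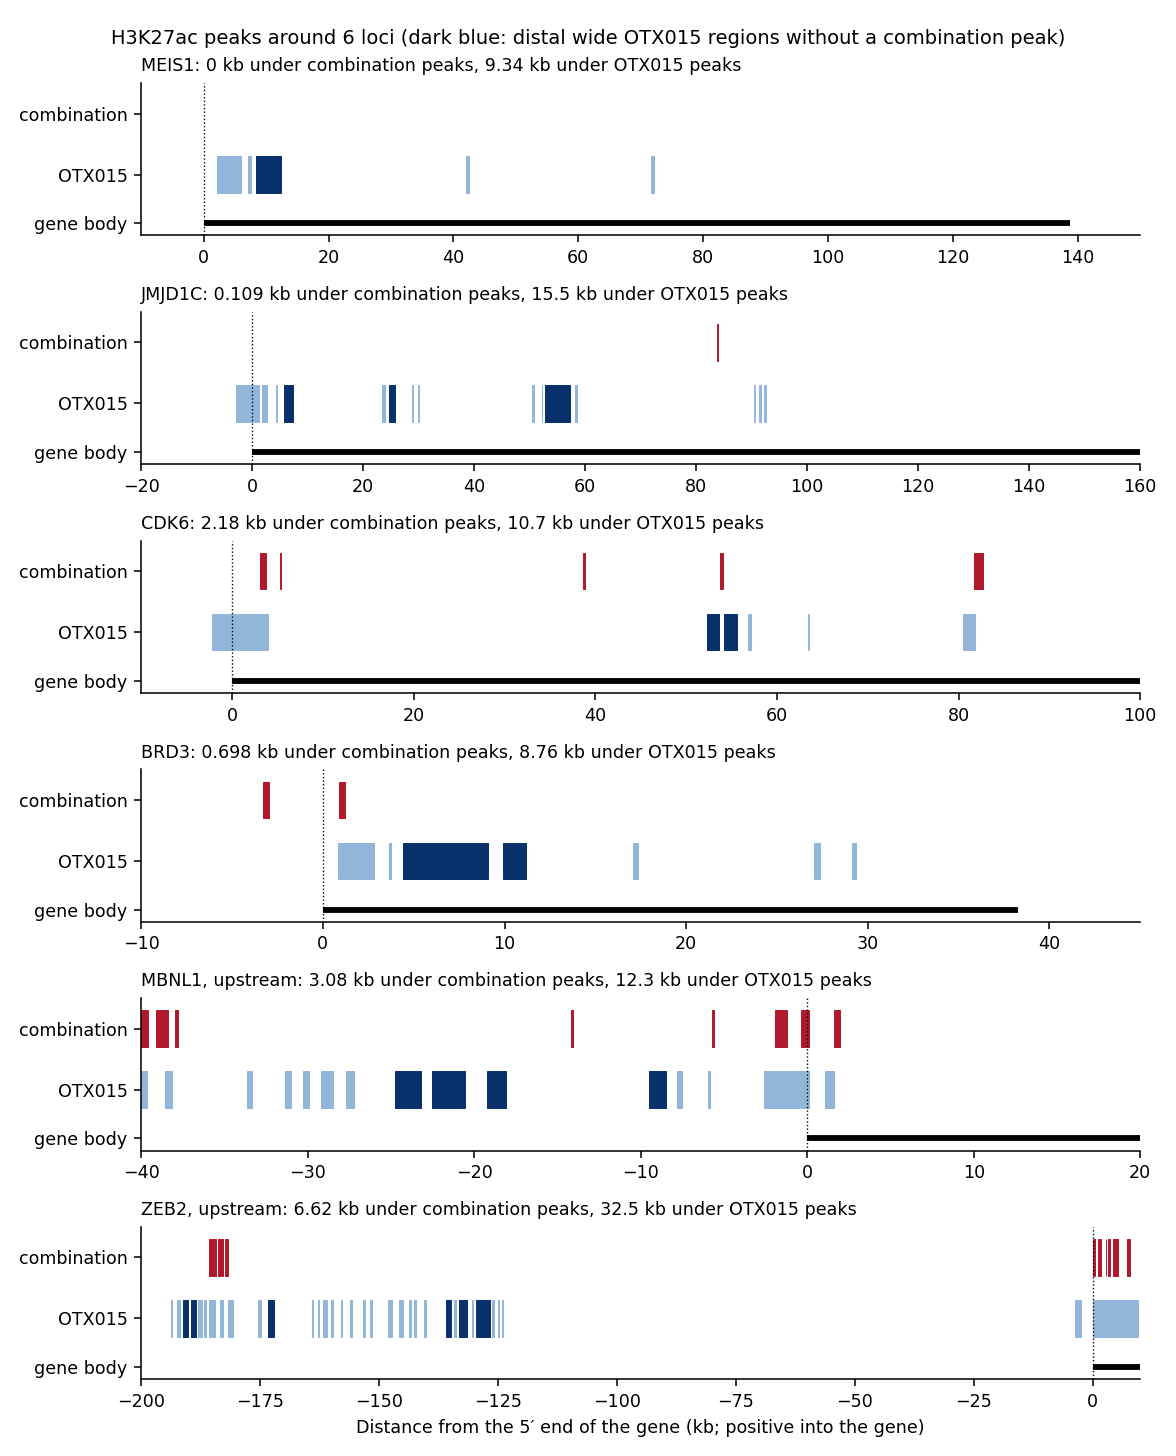
Peaks around 6 genes by distance from the 5′ end (kb, positive into the gene), with the combination list above the OTX015 list and the gene body as a black bar. Dark blue marks the distal wide OTX015 regions without a combination peak, light blue the other OTX015 peaks and red the combination peaks. The MEIS1 panel holds 0 combination and 5 OTX015 peaks, and the ZEB2 panel 9 and 34.

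The regions were partly clustered. Joined where they lay within 50 kb of each other, they formed 174 groups, of which 150 held 1 region and 24 held the other 64. The group with the most regions and the largest summed length lay 127 to 190 kb upstream of ZEB2, a zinc finger repressor of the dendritic and myeloid lineages. It had 6 regions, which summed to 8.98 kb of a 64.5 kb span, chr2:144646874-144711367. Combination peaks covered 3.08 kb of this span in 3 peaks, and OTX015 peaks covered 20.2 kb in 27. The regions of 1121 and 1016 bp farthest from ZEB2, with fold enrichments of 4.39 and 3.72, stood 2.75 and 4.5 kb from combination peaks, whereas the 3 regions closest to ZEB2 were 45.7 to 52.1 kb from any. The combination calls in the ZEB2 group thus sat toward its far end.

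Next in summed length were the 3 regions of JMJD1C and 4 regions between CNOT6L and MRPL1 on chromosome 4, which encode a deadenylase of the CCR4-NOT complex and a mitochondrial ribosomal protein. Over the 31.2 kb of the CNOT6L group, combination peaks covered 0.801 kb and OTX015 peaks 11.4 kb. Its largest region, chr4:77856420-77859615, was 3196 bp wide, with a fold enrichment of 4.71, and lay 3.21 kb upstream of MRPL1. Another group of 5 regions lay on chromosome 21 between 155 and 206 kb downstream of the 5′ end of TPTE, a testis-expressed phosphatase-like gene. The nearest combination peak was 1428 to 1478 kb from them, and over their 51.9 kb the OTX015 list had 24 peaks covering 13.4 kb. Fold enrichments in the TPTE group were 3.52 to 3.91. SEPTIN9, a septin of the cytoskeleton and a known MLL fusion partner, held 4 regions in a 74.2 kb span that was covered over 15.4 kb in the combination list and 25.7 kb in the OTX015 list. The SEPTIN9 span was thus marked in both lists.

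Chromosome 21 as a whole had 12 such regions among 28 distal wide OTX015 regions (42.9%, 26.5 to 60.9%) and 0 combination-only regions. The share was 8.62% on chromosome 15 and 11.3% on chromosome 12, the 2 lowest of the 16. Besides the TPTE group, chr21:10676908-10728831, another 2 of the chromosome 21 regions lay at chr21:7922400-7949493, nearest to LOC102723475. Over that span combination peaks covered 0.127 kb and 14 OTX015 peaks 9.51 kb. Whether reads can be placed uniquely in these 2 stretches was not tested. In NCAM2, a neural cell adhesion gene, lay 3 more regions, with fold enrichments of 3.58 to 4.07.

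The widest region of all lay in NFE2L1, which encodes a transcription factor that controls proteasome genes. It was 6198 bp long, chr17:48053442-48059639, and started 5.08 kb inside the gene, yet its fold enrichment of 3.94 was close to the median of the set. The nearest combination peak was 25.7 kb away, and neither list had a peak at the NFE2L1 promoter. Width and height did not go together in NFE2L1.

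The regions that followed MEIS1 in width lay at genes of varied function. One of 3872 bp lay in FLCN, the folliculin gene of nutrient signalling, and one of 3593 bp lay beyond the end of HGF, the ligand of the MET receptor. PRDM16, a transcription factor gene, held regions of 3081 and 1191 bp, and their nearest combination peaks were 189 and 200 kb away. Their nearest 5′ end was that of ARHGEF16, which was also nearest to 2 regions in MEGF6. A region of 3009 bp lay 258 kb upstream of the adhesion gene CADM1. Regions of 2986 bp and 2899 bp lay in ARHGAP9 and in RTF1, an elongation factor linked to the PAF1 complex. The nearest 5′ ends of these last belonged to MARS1, a tRNA synthetase gene, and ITPKA, an inositol trisphosphate kinase gene. Fold enrichment was 3.64 in the PRDM16 region of 1191 bp and 3.85 to 4.31 in the other regions at FLCN, HGF, PRDM16, CADM1, ARHGAP9 and RTF1.

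Among the regions of highest fold enrichment outside the MLL fusion targets were 2 at DRC8 on chromosome 1, at 4.64 and 4.56. They measured 2878 and 2341 bp and lay 14.1 and 3.77 kb upstream. Near SKIDA1 on chromosome 10, the regions of 2820 and 1290 bp had fold enrichments of 4.16 and 4.66, and combination peaks stood 0.214 and 0.719 kb from them. TEX264, a receptor for degradation of endoplasmic reticulum, held one at 4.42. A region of the same fold lay 65.2 kb downstream of the 5′ end of DHRS2, a short-chain dehydrogenase, where the nearest combination peak was 363 kb away. The region in TOM1L2, whose nearest 5′ end was that of the lipid regulator SREBF1, had 4.34 and a combination peak at 0.75 kb. IQSEC1, an ARF exchange factor, held 3 regions with fold enrichments of 3.54 to 3.87. These regions therefore ranged from ones flanked closely by combination peaks to ones 363 kb from any, as at DHRS2.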

How the data were processed

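H3K27ac ChIP-seq peaks of MOLM13 cells were analysed for 2 treatments, with 1 library each. Per the submitters' processing notes, bcl2fastq 2.17, Trimmomatic 0.33, Bowtie 1.1.2 and MACS2 2.1.0 were used, with GRCh38. For each ChIP library the authors deposited a list of broad peaks. Each peak has a deposited score, a deposited fold enrichment (a ratio of pileup to background), and a deposited −log10 p and −log10 q. The score was not used further. The sample titles name the mark H2K27Ac and the antibody label H3K27Ac, and the antibody was followed. Whether the inputs served as controls is not given in the sources used here.

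Depth was solved from the lowest peaks, taking fold as pileup plus 1 over background plus 1 and p from a Poisson distribution, which gave pileups of 7 over 1.47 with the combination and 5 over 0.764 with OTX015. Gene positions were those of RefSeq on GRCh38.p14. Strands came from the RefSeq start table (11515 genes) or GENCODE v44lift37 by symbol (2445), so that 13960 of 14132 protein-coding genes on the 16 chromosomes were used. As 5′ end, the outermost start of a gene's record was taken. Region sequences were not read, because the reference genome used here is GRCh37.

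The regions, the 17 gene lists (226 symbols, all matched) and the tests were chosen with earlier results of these data known. Named genes were all MLL fusion target loci with a region, up to 4 genes with the most region length in each other list, the genes nearest to the 12 widest and the 12 most enriched regions, the 10 genes nearest to the most regions and those at the 8 groups of largest summed region length. Genes whose bodies hold such regions, and the regions at the limits of the rule, were named in addition. Shares have Wilson 95% intervals and medians binomial ones. Alternatives varied the width, distance, threshold, overlap, merging, windows and peak numbers. Interval arithmetic and the background solution were tested on simulated data. Tools were statsmodels 0.14.6, matplotlib 3.10.9, pandas 2.3.3, scipy 1.17.1 and numpy 2.4.6 on Python 3.11.15.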

Additional observations from a re-analysis of the deposited data

How the results depend on the processing

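The number of regions and their share of distal wide OTX015 regions followed the limits of the rule. The number was 1301 at a minimum width of 500 bp (48.6% of such regions), 64 at 1500 bp (11.1%) and 21 at 2000 bp (5.88%). It was 33 with OTX015 regions of −log10 q of at least 2 (8.35%), 159 when a combination peak within 1 kb counted as shared (15.7%), and 354 when sharing needed at least 25% of the region to be covered (34.9%). Counting only combination peaks that reached the enrichment over background of the lowest OTX015 peak, an alternative chosen after seeing the data, left 289 combination peaks and made the number 875 (86.2%). The regions thus depend on where the peak threshold of each library falls. With combination peaks cut to the 15440 of highest −log10 p, also chosen after seeing the data, the number was 227.

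The flank difference kept its sign under every alternative run, but the run at the common enrichment could hardly give another sign. That run set 289 combination peaks against all OTX015 peaks. The limits of width and −log10 q were set on the OTX015 regions alone. The difference was −0.169 kb at 500 bp, −1.84 kb at 1500 bp, −3.69 kb at 2000 bp, −3.97 kb at −log10 q of at least 2 and −3.57 kb at the common enrichment. The share in gene bodies was 57.1% at 2000 bp and 57.6% at −log10 q of at least 2. Promoter peaks of nearest genes were at 39.3% in the combination list and 50% in the OTX015 list at −log10 q of at least 2, and at 28.7% and 36.3% with a 2.5 kb promoter window. For genes whose body held a region, the combination share was 12.4%. For nearest genes the combination share was 3.05% at the common enrichment, where that list was cut to 289 peaks. The OTX015 share of nearest genes was 40% at 2000 bp. Of the 7 MLL fusion target loci, 3 held a region at 2000 bp and 3 at more than 10 kb from 5′ ends, where MEIS1, BMI1 and HOXA9 dropped out and so did BRD3 and NFE2L1. The JMJD1C regions summed to 2.8 kb in place of 7.25 kb when regions within 2.5 kb of any RefSeq start were left out. CDK6 held 0 kb at 1500 bp, at 2000 bp, at −log10 q of at least 2 and with sharing within 1 kb. HOXA9 held 0 kb at 1500 bp, 2000 bp and −log10 q of at least 2, and PBX3 held 0 kb at 2000 bp. The other 71 values of the main results stayed within 1.5 times (counts) or within the interval of the value reported. Of the region lengths in single loci, 31 changed by more than 1.5 times and 89 did not. Leaving out chromosome 21 gave 202 regions. No paired analysis was possible because each treatment had 1 ChIP library. The lowest pileups called were 7 fragments with the combination and 5 with OTX015.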
